A study of Mus musculus with 12 samples.

Results

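The genes described here are 10 members of the p53 pathway and the GADD45 family, chosen by name, and read through every probe set annotated to them on a whole-genome mouse expression array. Of the 10 genes, 9 had annotated probe sets, namely Mdm2, Ccng1, Aen, Phlda3, Zmat3, Trp53inp1, Gadd45a, Gadd45b and Gadd45g. No probe set was annotated to Trp53 itself in the table used, so Trp53 was not analysed here. The 9 genes held 19 of the 45101 probe sets on the array, and all 19 passed the filter on low values. Mdm2 1457929_at did so only through its signals in cko at 0 h.

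The p53 protein is a transcription factor that is stabilised by DNA damage and other stresses, and it switches on genes for cell cycle arrest, DNA repair and apoptosis. MDM2 is the ubiquitin ligase that marks p53 for degradation and is itself a p53 target, which closes a feedback loop. The GADD45 proteins are small stress-induced proteins that bind the kinase MEKK4 (Map3k4), PCNA and the CDK1-cyclin B complex. Gadd45a is a p53 target, while Gadd45b and Gadd45g are best known as early response genes downstream of cytokine, NF-kB and growth signals, and in lymphocytes antigen receptor signals act through the same NF-kB route.

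The RNA came from splenic follicular B cells of male 129SvEv mice aged 8 weeks, sorted as B220+ AA4.1- with high CD23 and intermediate CD21. Arrays labelled cko (Zfx conditional knockout) were compared with arrays labelled wt (wild type), each after 0, 2 and 12 h of culture with 10 µg/mL of anti-IgM, which clusters the antigen receptor of B cells. There were 12 arrays, 2 for each of the 6 groups. The sources used here name neither the Cre driver nor the deleted part of Zfx. They do not say whether duplicate arrays stand for different mice, so p-values reflect array-to-array spread alone, possibly only technical.

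Signals below are the deposited linear intensities. Differences are on the log2(signal + 16) scale ± the standard error of the limma fit, cko minus wild type or later minus earlier time. A probe set was called, and is said to have risen, fallen or been higher or lower, at an adjusted p under 0.05 over the 21906 probe sets tested. Folds are on the same scale and understate the change of dim probe sets. Levels of different genes are not compared, because probe sets differ in how brightly they bind.

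Several facts of the arrays bear on the comparisons. The control probe sets split the groups by the ratio of the 5′ to the 3′ actin signal, which ran over 8.41 to 19.1% in cko at 2 h, cko at 12 h and wild type at 2 h, and over 1.8 to 3.33% in cko at 0 h, wild type at 0 h and wild type at 12 h. The genotype comparisons at 0 h and 2 h, the 12 h response of wild type and the 12 h against 2 h comparison in cko each lie within 1 of these sides. The interaction at 2 h takes its difference equally from both. The other comparisons cross the division, and within them genotype or time and the division cannot be told apart. The brightest of the 4 Zfx probe sets was higher, not lower, on the arrays labelled cko, with signals of 2189 and 2618 at 0 h against 983 and 1041 in wild type. Its differences were 1.23 ± 0.09 at 0 h, 0.32 ± 0.09 at 2 h and 0.38 ± 0.09 at 12 h, which does not check the genotype label. The summed signal of 8 myeloid markers was 9621 to 9640 in cko and 21045 to 21857 in wild type at 0 h, 2602 to 2824 and 15922 to 15973 at 2 h, and 3581 to 3729 and 7600.2 to 8555 at 12 h. At 0 h S100a8 held the largest part of this sum (4594 in cko, 11983 in wild type), while Csf1r was higher in cko (1591 against 829). Of the 7 tested, 1 was called higher and 5 lower in cko at 0 h and at 12 h, and 0 and 6 at 2 h. The sums of 7 follicular B cell markers were 72529 to 73717 in cko and 62515 to 63132 in wild type at 0 h, 22083 to 22428 and 22875 to 24497 at 2 h, and 33498 to 34217 and 27516 to 27789 at 12 h. The sums of 4 erythroid markers were 237 to 258 in cko and 1268 to 1389 in wild type at 0 h, 88.5 to 95.4 and 386 to 399.9 at 2 h, and 71.2 to 93.4 and 368 to 374 at 12 h. Those of 4 plasma cell markers were 8585 to 9016 in cko and 8233 to 8405 in wild type at 0 h, 8542 to 8893 and 9761 to 10323 at 2 h, and 8065 to 8414 and 4771 to 5081 at 12 h. Those of 7 T and NK cell markers were 3028 to 3323 in cko and 3626 to 3738 in wild type at 0 h, 1724 to 1737 and 1704 to 1797 at 2 h, and 1337 to 1398 and 1220 to 1316 at 12 h. The part of these markers in the results on the 9 genes was not tested. Scaling every array to the same median instead would raise the differences of all probe sets by 0.20 to 0.29 in the 2 h responses and the 12 h response of cko, and by 0.22 in the genotype comparison at 12 h. The share of called probe sets that were higher would then be 58.2% in place of 44.8% at 2 h in cko, 56.2% in place of 45.8% at 2 h in wild type, 63.9% in place of 46.7% at 12 h in cko, and 64% in place of 47.3% between the genotypes at 12 h. In the genotype comparison at 0 h it would be 37.1% in place of 49.4%, and in the interactions 60.1% in place of 46% at 2 h and 69.7% in place of 49.6% at 12 h. No difference of the 19 probe sets that was called turned its sign under this scaling. The number called was then 17 in place of 15 at 2 h in cko, 14 in place of 12 at 12 h in cko, and 10 in place of 12 for the interaction at 12 h. In RNA from bulk cells, fewer cells of a type and less RNA per cell cannot be told apart.

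RefSeq promoter sequences of GRCm38.p6 were at hand for 7 of the 9 genes. The p53 decamer, of which a full p53 response element holds a pair, was found within 250 bases upstream of the start in 4 of these 7 genes, and in 7.13% of 32851 mouse promoter windows. The 30 bases around each match are shown because they set p53 target genes of the list beside each other. Capitals mark the decamer, and each sequence reads 5′ to 3′ on the strand of its gene.

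Mdm2 (chr10:117710925-117710954, minus strand): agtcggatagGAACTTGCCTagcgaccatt
Ccng1 (chr11:40755452-40755481, minus strand): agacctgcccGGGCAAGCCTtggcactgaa
Aen (chr7:78895927-78895956, plus strand): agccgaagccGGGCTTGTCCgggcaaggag
Gadd45a (chr6:67037428-67037457, minus strand): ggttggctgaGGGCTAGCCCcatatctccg

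The decamer began 186 bases before the start in Mdm2, 185 in Ccng1, 121 in Aen (the second of its windows) and 40 in Gadd45a. A match is a description of letters and not a site of binding. The promoters of the 3 GADD45 genes follow, because they form 1 family, of which Gadd45b gave the largest response to anti-IgM of the 9 genes. Each line holds the 250 bases before the start, with the CCAAT box, the TATA box (TATAAA) and the p53 decamer in capitals.

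Gadd45a (chr6:67037408-67037657, minus strand): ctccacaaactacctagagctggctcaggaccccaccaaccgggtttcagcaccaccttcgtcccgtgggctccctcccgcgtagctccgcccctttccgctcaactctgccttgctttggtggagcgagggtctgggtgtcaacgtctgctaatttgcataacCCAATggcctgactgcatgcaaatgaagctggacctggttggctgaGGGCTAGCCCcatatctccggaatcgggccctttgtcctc
Gadd45b (chr10:80929841-80930090, plus strand): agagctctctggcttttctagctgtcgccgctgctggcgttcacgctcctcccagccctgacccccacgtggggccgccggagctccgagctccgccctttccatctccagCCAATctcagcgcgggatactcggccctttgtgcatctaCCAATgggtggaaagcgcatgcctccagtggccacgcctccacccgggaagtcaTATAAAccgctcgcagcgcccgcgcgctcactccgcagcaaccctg
Gadd45g (chr13:51846425-51846674, plus strand): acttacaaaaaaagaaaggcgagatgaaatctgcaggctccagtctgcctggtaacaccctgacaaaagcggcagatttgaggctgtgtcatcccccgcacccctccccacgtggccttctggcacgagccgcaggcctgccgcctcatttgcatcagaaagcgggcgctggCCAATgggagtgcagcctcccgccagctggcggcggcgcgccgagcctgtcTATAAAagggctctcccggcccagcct

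Motifs were searched on both strands, and no match of a motif overlapped that of another in the sequences shown. TATAAA occurred in Gadd45b and Gadd45g only, 2 of 7 genes and 12.4% of all windows. CCAAT occurred in 6 of 7 genes and 33.8% of windows. AGGCCT, a sequence known from Zfx binding sites, occurred in Gadd45g alone and in 8.7% of windows. The kappaB site (3.9% of windows), the CArG box (1.47%), the EGR site GCGTGGGCG (0.536%), the AP-1 site TGACTCA (4.46%) and the CRE TGACGTCA (1.55%) occurred in 0 of the 7 genes, which says only that these letters are not in these windows.

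Gadd45b gave the largest response of the 9 genes. Its 3 probe sets rose after 2 h of anti-IgM in both genotypes, and they were higher in cko before stimulation. Probe set 1450971_at had signals of 535 and 522 at 0 h, 6308 and 6878 at 2 h and 1681 and 1853 at 12 h in cko, against 254 and 205, 7504 and 7061, and 1160 and 958 in wild type. The 2 h arrays stood far above all others and the 12 h arrays lay between 0 h and 2 h in both genotypes. The rise at 2 h was 3.60 ± 0.11 in cko (12.1-fold, adjusted p = 2.4e-12) and 4.90 ± 0.11 in wild type (29.9-fold, adjusted p = 3.2e-13). Probe set 1449773_s_at had 1828 and 1900.1 at 0 h, 7900.2 and 8272 at 2 h and 2166 and 2313 at 12 h in cko, against 983 and 1076, 7861 and 7898, and 2310.5 and 2349 in wild type. It rose by 2.11 ± 0.06 in cko and 2.92 ± 0.06 in wild type at 2 h. The genotypes thus reached similar signals at 2 h (differences of -0.14 ± 0.11 and 0.04 ± 0.06, not called) from different starting levels, as 1450971_at was 1.16 ± 0.11 higher in cko at 0 h and 1449773_s_at 0.85 ± 0.06 higher. The interaction at 2 h was -1.30 ± 0.15 (adjusted p = 6.8e-05) and -0.81 ± 0.09 (adjusted p = 5.0e-05). A model with genotype and time as additive terms beside the control-probe division gives 1 genotype difference and 1 difference for each time. Its 12 h and division terms fit both 12 h groups exactly. Its genotype difference thus rests on the 0 h and 2 h arrays, and its 12 h difference on wild type at 12 h. The division term takes up how far the 12 h genotype difference departs from that of the model, and this is taken off the 2 h response. Values of this model therefore do not check the 12 h genotype differences, and its 2 h values depend on them. In this model the genotype difference was 0.51 on 1450971_at (adjusted p = 0.090, not called) and 0.44 on 1449773_s_at (adjusted p = 0.025, called). It joins the 0 h and 2 h differences, so it does not check that at 0 h alone.

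At 12 h Gadd45b remained above its 0 h level on 1450971_at (1.71 ± 0.11 in cko, 2.13 ± 0.11 in wild type) and on 1449773_s_at (0.26 ± 0.06 in cko, 1.17 ± 0.06 in wild type). Between the genotypes at 12 h, 1450971_at was 0.74 ± 0.11 higher in cko, and 1449773_s_at was not called (-0.06 ± 0.06) with overlapping groups. The third probe set, 1420197_at, was dim, with signals of 94 to 190 in cko and 53 to 139 in wild type. Its rise at 2 h was 0.66 ± 0.21 in cko and 0.86 ± 0.21 in wild type, and its genotype difference at 0 h was 0.71 ± 0.21. In cko the rise was lost without replicate 2 at 0 h (0.50) or at 2 h (0.62), and the difference at 0 h without wild-type replicate 2 (0.56) or cko replicate 1 (0.56).

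Gadd45a, the p53-induced member of the family, rose at 2 h in both genotypes and was higher in cko than in wild type at 12 h. Its probe set 1449519_at had signals of 79 and 71 at 0 h, 200.2 and 201 at 2 h and 113 and 179 at 12 h in cko, against 46 and 64, 130.1 and 127, and 22 and 34 in wild type. Both 2 h groups lay above the 0 h arrays of their genotype, the 12 h cko arrays lay between, and the 12 h wild-type arrays were the lowest of all 12. The rise at 2 h was 1.25 ± 0.24 in cko (adjusted p = 0.00042) and 1.03 ± 0.24 in wild type (adjusted p = 0.0021), and the difference between these responses was not called (0.22 ± 0.34). At 12 h against 0 h the difference was 0.81 ± 0.24 in cko and -0.70 ± 0.24 in wild type, and the interaction was 1.50 ± 0.34 (adjusted p = 0.0029). The genotypes were not separated by the test at 0 h (0.36 ± 0.24) or 2 h (0.58 ± 0.24), and cko was 1.87 ± 0.24 higher at 12 h (3.64-fold, adjusted p = 1.8e-05). That comparison crosses the control-probe division. The wild-type 12 h signals lay below the median of their arrays (37.8 and 37.4). The size of the 12 h difference thus depends on the added constant, at 2.34 with 1 and 1.18 with 64 in place of 16. The 12 h calls against 0 h were lost without cko replicate 2 at 0 h (0.74) or at 12 h (0.51), and in wild type without replicate 2 at 0 h (-0.52) or replicate 1 at 12 h (-0.49). In wild type the call was also lost with 64 in place of the added 16 (-0.37), without the filter on low values and in the fit of only the groups compared. The additive model with the control-probe division gave -0.25 at 2 h, a value that carries the 12 h genotype difference. It gave -0.64 at 12 h, which rests on wild type at 12 h. These values check neither the 2 h rises nor the 12 h rise of cko. The genotype difference of this model, from the 0 h and 2 h arrays, was 0.47 and not called (adjusted p = 0.077).

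Gadd45g fell after stimulation in wild type and was higher in cko at every time. Probe set 1453851_a_at had signals of 1209 and 1127 at 0 h, 882 and 853 at 2 h and 1115 and 1074 at 12 h in cko, against 976 and 822, 506 and 582, and 289 and 369 in wild type. No cko array at any time lay below the wild-type arrays of the same time. The fall at 2 h was -0.42 ± 0.12 in cko and -0.71 ± 0.12 in wild type. At 12 h the level was -0.09 ± 0.12 from the 0 h level in cko (not called) and -1.41 ± 0.12 in wild type (adjusted p = 3.1e-07). The genotype difference was 0.38 ± 0.12 at 0 h, 0.66 ± 0.12 at 2 h and 1.70 ± 0.12 at 12 h (3.24-fold, adjusted p = 4.9e-08), and the interaction was 0.29 ± 0.17 at 2 h (not called) and 1.32 ± 0.17 at 12 h. Under median scaling the difference at 0 h (0.30) and the fall at 2 h in cko (-0.14) were not called. The difference at 0 h was also lost without wild-type replicate 2 (0.25) or cko replicate 1 (0.33) or 2 (0.43), and the fall at 2 h in cko was not called without cko replicate 1 at 0 h (-0.37). The higher level at 2 h in cko, which lies within 1 side of the control-probe division, held without each of the 4 arrays in turn. In the additive model with the division the genotype difference, from the 0 h and 2 h arrays, was 0.52 (adjusted p = 0.0033).

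**Figure D1:**
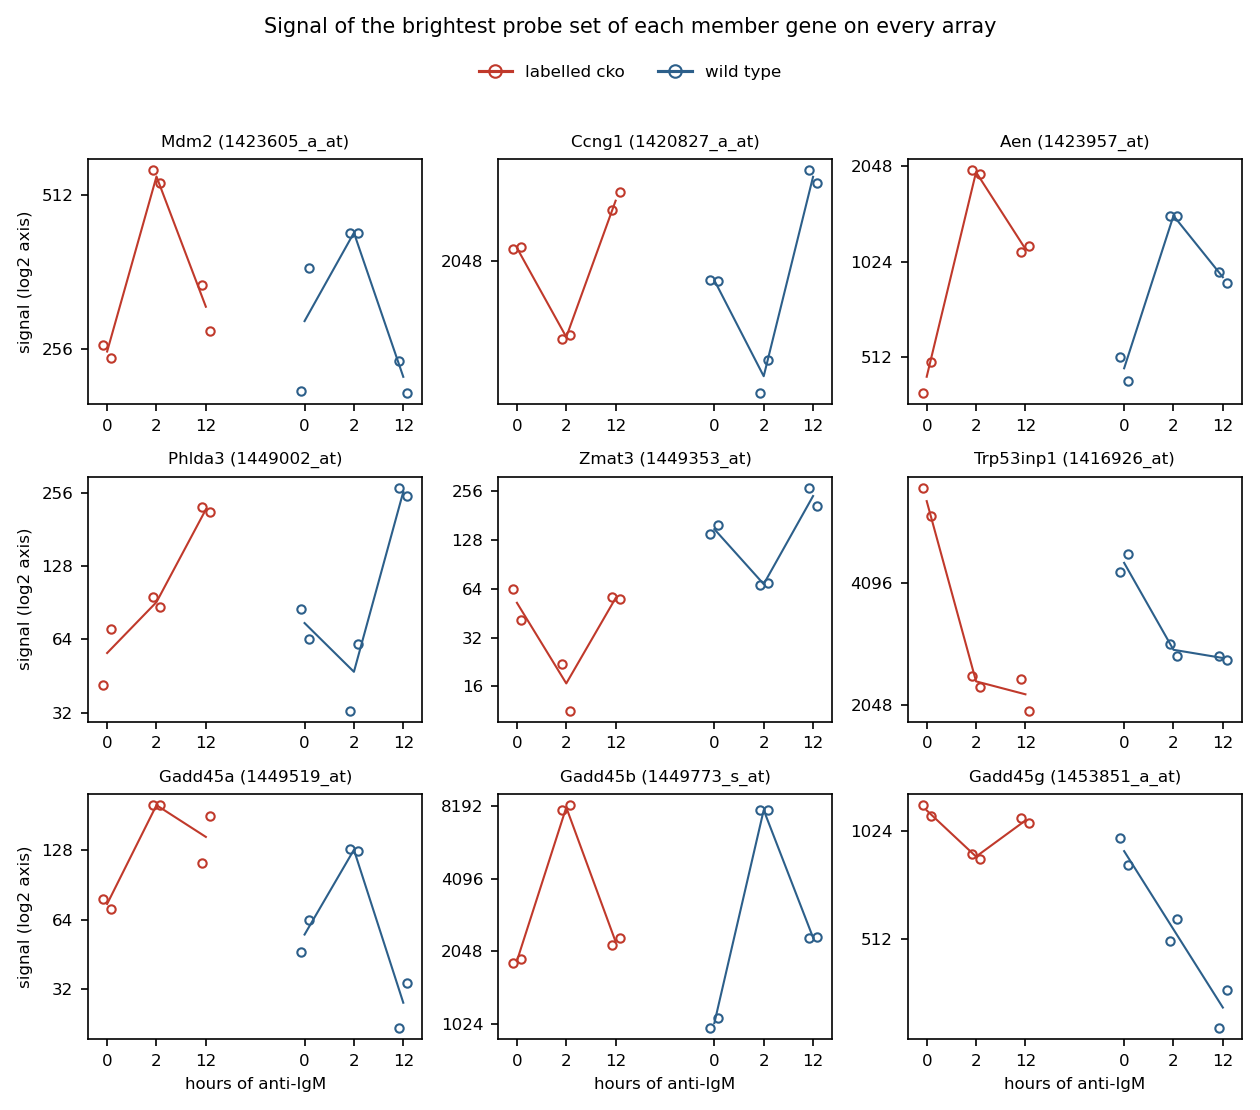
Signal of the brightest probe set of each of the 9 genes (linear intensity, log2 axis) on each array, with cko left of wild type at 0, 2 and 12 h of anti-IgM, evenly spaced on the axis. Points are arrays and lines join group means. Gadd45b is highest at 2 h in both genotypes, and Gadd45g at 12 h lies at 1115 and 1074 in cko against 289 and 369 in wild type.

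Mdm2, the ubiquitin ligase that restrains p53, was read by 3 probe sets that did not move together. The brightest, 1423605_a_at, had signals of 260 and 246 at 0 h, 573 and 541 at 2 h and 341 and 278 at 12 h in cko, against 212 and 368, 432 and 432, and 242 and 209 in wild type. It rose at 2 h in cko (1.09 ± 0.19, adjusted p = 0.00019) and in wild type (0.60 ± 0.19). The wild-type call was lost without wild-type replicate 1 at 0 h (0.22) or replicate 1 (0.60) or 2 (0.60) at 2 h. The additive model with the control-probe division gave 0.53 at 2 h (adjusted p = 0.23, not called). This value carries the 12 h genotype difference and checks neither rise. The genotype differences of 1423605_a_at were -0.14 ± 0.19, 0.35 ± 0.19 and 0.43 ± 0.19 at 0, 2 and 12 h, none called, although the last was called under median scaling (0.64). Probe set 1427718_a_at had 371 and 298 at 0 h, 64 and 51 at 2 h and 31 and 44 at 12 h in cko, against 59 and 130.3, 61 and 60, and 203 and 231 in wild type. It fell in cko (-2.26 ± 0.28 at 2 h, -2.71 ± 0.28 at 12 h) while its wild-type signal was higher at 12 h than at 0 h (1.15 ± 0.28, lost without wild-type replicate 1 at 0 h, 0.67). It was 1.74 ± 0.28 higher in cko at 0 h and 2.13 ± 0.28 lower at 12 h, with an interaction of -3.86 ± 0.39 at 12 h, the largest of the 19 probe sets. The additive model with the division gave a genotype difference of 0.83 (adjusted p = 0.084) and time differences of 1.60 at 2 h and 0.70 at 12 h, none of them called. The 2 h value carries the 12 h genotype difference, and the 12 h value rests on wild type at 12 h. Probe set 1457929_at was near the floor of the array, with signals of 3.31 to 74.6 in cko and 11.9 to 25.5 in wild type. Its mean of 5.18 on the log2 scale lay only just above the filter (5.14), and it was brightest in cko at 0 h (74.6 and 62.8). It passed the filter through that group, so its differences that take in cko at 0 h are given only as a description. Its difference at 0 h (1.22 ± 0.35) was called with all arrays and lost without each of the 4 arrays of that comparison in turn (1.12 to 1.32). With the mean of the 3 probe sets the 2 h difference of Mdm2 in cko was -1.10 (adjusted p = 0.00039), the opposite sign to that of the brightest.

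Ccng1, cyclin G1, a p53 target that recruits a phosphatase to MDM2, fell at 2 h and rose at 12 h in both genotypes. Probe set 1420827_a_at had signals of 2176 and 2196 at 0 h, 1409 and 1441 at 2 h and 2623 and 2861 at 12 h in cko, against 1876 and 1866, 1087 and 1273, and 3172 and 2980 in wild type. The 3 times did not overlap in either genotype. The fall at 2 h was -0.61 ± 0.08 in cko and -0.66 ± 0.08 in wild type, and the rise at 12 h was 0.32 ± 0.08 in cko and 0.71 ± 0.08 in wild type. In the additive model with the control-probe division the fall was not called (-0.22, adjusted p = 0.24). The same model gave 0.28 at 2 h on 1450016_at, against the falls in both genotypes, and 1.15 on 1450017_at, against the fall in wild type. These values carry the 12 h genotype difference of their probe set, so they do not check the falls. On 1450016_at the fall was -0.87 ± 0.12 and -0.36 ± 0.12, and the rise was 0.93 ± 0.12 and 2.08 ± 0.12, in cko and in wild type. The wild-type fall on that probe set was lost under median scaling (-0.16) and without replicate 1 at 0 h (-0.14) or replicate 2 at 2 h (-0.30). Probe set 1450017_at also rose at 12 h, by 0.70 ± 0.16 in cko and 1.69 ± 0.16 in wild type. At 2 h it was not called in cko (0.15 ± 0.16) and fell in wild type (-0.75 ± 0.16). Between the genotypes at 2 h 1450017_at was 0.99 ± 0.16 higher in cko (adjusted p = 0.00047), with signals of 257 and 226 in cko against 135 and 94 in wild type. There 1450016_at was not called (-0.24 ± 0.12), and the call on 1420827_a_at (0.27 ± 0.08) was lost without wild-type replicate 1 (0.16) or cko replicate 1 (0.29) or 2 (0.26). At 12 h 1450016_at and 1450017_at were lower in cko (-0.88 ± 0.12 and -0.90 ± 0.16), and 1420827_a_at was not called (-0.17 ± 0.08). The rise at 12 h was smaller in cko on all 3 probe sets, with interactions of -0.39 ± 0.11, -1.14 ± 0.17 and -0.99 ± 0.22, the first of them lost under median scaling (-0.09) and without cko replicate 1 at 12 h (-0.33). This comparison crosses the control-probe division. In the additive model with the division the genotype differences of the 3 probe sets, from the 0 h and 2 h arrays, were 0.25, 0.01 and 0.54.

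Aen, an exonuclease induced by p53 in apoptosis, rose at 2 h in both genotypes and stayed up at 12 h on its brightest probe set. The signals of 1423957_at were 394 and 495 at 0 h, 1988 and 1937 at 2 h and 1098 and 1149.6 at 12 h in cko, against 514 and 431, 1430.4 and 1430.6, and 953 and 878 in wild type. The 2 h arrays were the highest, the 12 h arrays lay between, and the genotypes overlapped at 0 h. The rise at 2 h was 2.11 ± 0.11 in cko (4.32-fold, adjusted p = 6.2e-10) and 1.57 ± 0.11 in wild type (2.97-fold, adjusted p = 1.8e-08), and at 12 h it was 1.32 ± 0.11 and 0.94 ± 0.11. The additive model with the control-probe division gave 1.73 at 2 h (adjusted p = 5.6e-05). This value carries the 12 h genotype difference, so it does not check the 2 h rises. The higher signals in cko at 2 h (0.45 ± 0.11) and 12 h (0.29 ± 0.11) and the interaction at 2 h (0.54 ± 0.15) were called with all arrays. Without an array the 2 h difference was lost in 3 of 4 cases (wild-type replicate 1 or 2 or cko replicate 1, 0.43 to 0.45) and the 12 h difference in all 4 (0.23 to 0.35). The interaction was lost in 6 of 8 (0.38 to 0.56), and held without wild-type replicate 2 or cko replicate 2 at 0 h. The genotype difference of 1423957_at in the additive model with the division was 0.18 and not called (adjusted p = 0.30). It joins the 0 h and 2 h differences, so it does not check that at 2 h. At 12 h probe set 1437373_at differed in the other direction, -0.79 ± 0.21 in cko against wild type (adjusted p = 0.0070), a call kept without each of the 4 arrays in turn. The additive model gave 0.22 for it, from the 0 h and 2 h arrays. Of the other 3 probe sets, 1450506_a_at rose at 2 h (1.37 ± 0.23 in cko, 1.84 ± 0.23 in wild type). It was 0.66 ± 0.23 higher in cko at 0 h, lost under median scaling (0.59) and without cko replicate 1 (0.40) or wild-type replicate 1 (0.43). Probe set 1451186_at rose at 2 h in cko (2.23 ± 0.39) and was not called in wild type (0.74 ± 0.39). The difference between these responses was not called (1.50 ± 0.55). The cko signals of 1451186_at at 0 h (4.50 and 6.59) were below the median of their arrays (40.2 and 40.3), near the floor. The size of its cko rise thus depends on the added constant, at 3.73 with 1 and 1.10 with 64, called with both. Its wild-type signals at 0 h lay far apart (58.4 and 10.6). Probe set 1437373_at was not called at 2 h (0.43 ± 0.21 in cko, 0.26 ± 0.21 in wild type), and at 12 h it was called only in wild type (0.15 ± 0.21 in cko, 1.07 ± 0.21 in wild type), with an interaction of -0.92 ± 0.30 that was lost under median scaling (-0.63).

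Phlda3, a p53-induced inhibitor of AKT signalling, rose late. Its probe set 1449002_at had signals of 42 and 71 at 0 h, 95 and 87 at 2 h and 225 and 214 at 12 h in cko, against 85 and 64, 33 and 62, and 270.02 and 249 in wild type. The 12 h arrays were the highest in both genotypes. The rise at 12 h was 1.73 ± 0.26 in cko (adjusted p = 4.6e-05) and 1.61 ± 0.26 in wild type (adjusted p = 0.00013), and the difference between these was not called (0.12 ± 0.36). In the additive model with the control-probe division the 12 h value was 1.90 (adjusted p = 0.00033), which rests on wild type at 12 h. At 2 h neither response was called (0.60 ± 0.26 in cko, -0.55 ± 0.26 in wild type). The higher signal in cko at 2 h (0.80 ± 0.26) was lost without wild-type replicate 1 (0.47) or cko replicate 1 (0.75) or 2 (0.86). The genotype difference of the additive model with the division was 0.23 (adjusted p = 0.57). It joins the 0 h and 2 h differences, so it does not check that at 2 h. The interaction at 2 h (1.15 ± 0.36) was lost without any of 5 arrays (0.81 to 1.21), namely wild-type replicate 1 at 0 h or 2 h, cko replicate 1 at 0 h, and cko replicate 1 or 2 at 2 h.

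Zmat3, a p53-induced RNA-binding zinc-finger gene, was lower in cko at every time. Its probe set 1449353_at had signals of 64 and 41 at 0 h, 22 and 11.4 at 2 h and 57 and 55 at 12 h in cko, against 140 and 158, 67 and 69, and 268 and 208 in wild type. Every cko array lay below every wild-type array. At 2 h the cko signals were below the median of their arrays (29.9 and 30.5), near the floor, so the size of that difference depends on the added constant, at -2.04 with 1 and -0.72 with 64 in place of 16. The difference was -1.29 ± 0.25 at 0 h (2.44-fold lower, adjusted p = 0.0017), -1.39 ± 0.25 at 2 h (adjusted p = 0.0012) and -1.81 ± 0.25 at 12 h (3.50-fold lower, adjusted p = 3.1e-05). None of the 3 calls was lost when an array of the comparison was left out. The additive model with the division gave -1.34 (adjusted p = 0.00021), from the 0 h and 2 h arrays, which holds nothing of the 12 h difference. The 0 h and 2 h comparisons lie within a side of the division, and that at 12 h crosses it. Zmat3 fell at 2 h in cko (-1.06 ± 0.25) and wild type (-0.97 ± 0.25). The additive model with the division gave -0.54 at 2 h (adjusted p = 0.27), which carries the 12 h genotype difference. That value does not check the falls of Zmat3. Zmat3 was not called at 12 h against 0 h (0.10 ± 0.25 in cko, 0.62 ± 0.25 in wild type). Neither interaction was called (-0.10 ± 0.35 at 2 h, -0.52 ± 0.35 at 12 h).

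Trp53inp1, a p53-induced nuclear protein that takes part in apoptosis and autophagy, fell with anti-IgM. Its bright probe set 1416926_at had signals of 7012 and 5986 at 0 h, 2415 and 2277 at 2 h and 2373 and 1989 at 12 h in cko, against 4357 and 4812, 2898 and 2712, and 2714 and 2641 in wild type. The 0 h arrays were the highest in both genotypes, and those of cko lay above those of wild type. The fall was -1.46 ± 0.09 at 2 h and -1.57 ± 0.09 at 12 h in cko (adjusted p = 4.9e-09 and 3.2e-09), and -0.70 ± 0.09 and -0.77 ± 0.09 in wild type. The additive model with the control-probe division gave -0.66 at 2 h (adjusted p = 0.063, not called). Its genotype difference was 0.12 (adjusted p = 0.57, not called). The 2 h value carries the 12 h genotype difference, and the genotype value joins the 0 h and 2 h differences. These values check neither the 2 h falls nor the genotype difference at a single time. Before stimulation the signal was 0.50 ± 0.09 higher in cko (adjusted p = 0.0012), at 2 h it was not called (-0.26 ± 0.09), and at 12 h it was -0.30 ± 0.09. The 12 h difference was lost under median scaling (-0.08) and without wild-type replicate 1 (-0.28) or cko replicate 2 (-0.17). The interactions were -0.76 ± 0.13 at 2 h (adjusted p = 0.0014) and -0.80 ± 0.13 at 12 h (adjusted p = 0.00021). The dimmer probe set 1416927_at, with signals of 23.2 to 97.7 in cko and 14.0 to 63.8 in wild type, was not called in any of the 10 comparisons.

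**Figure D2:**
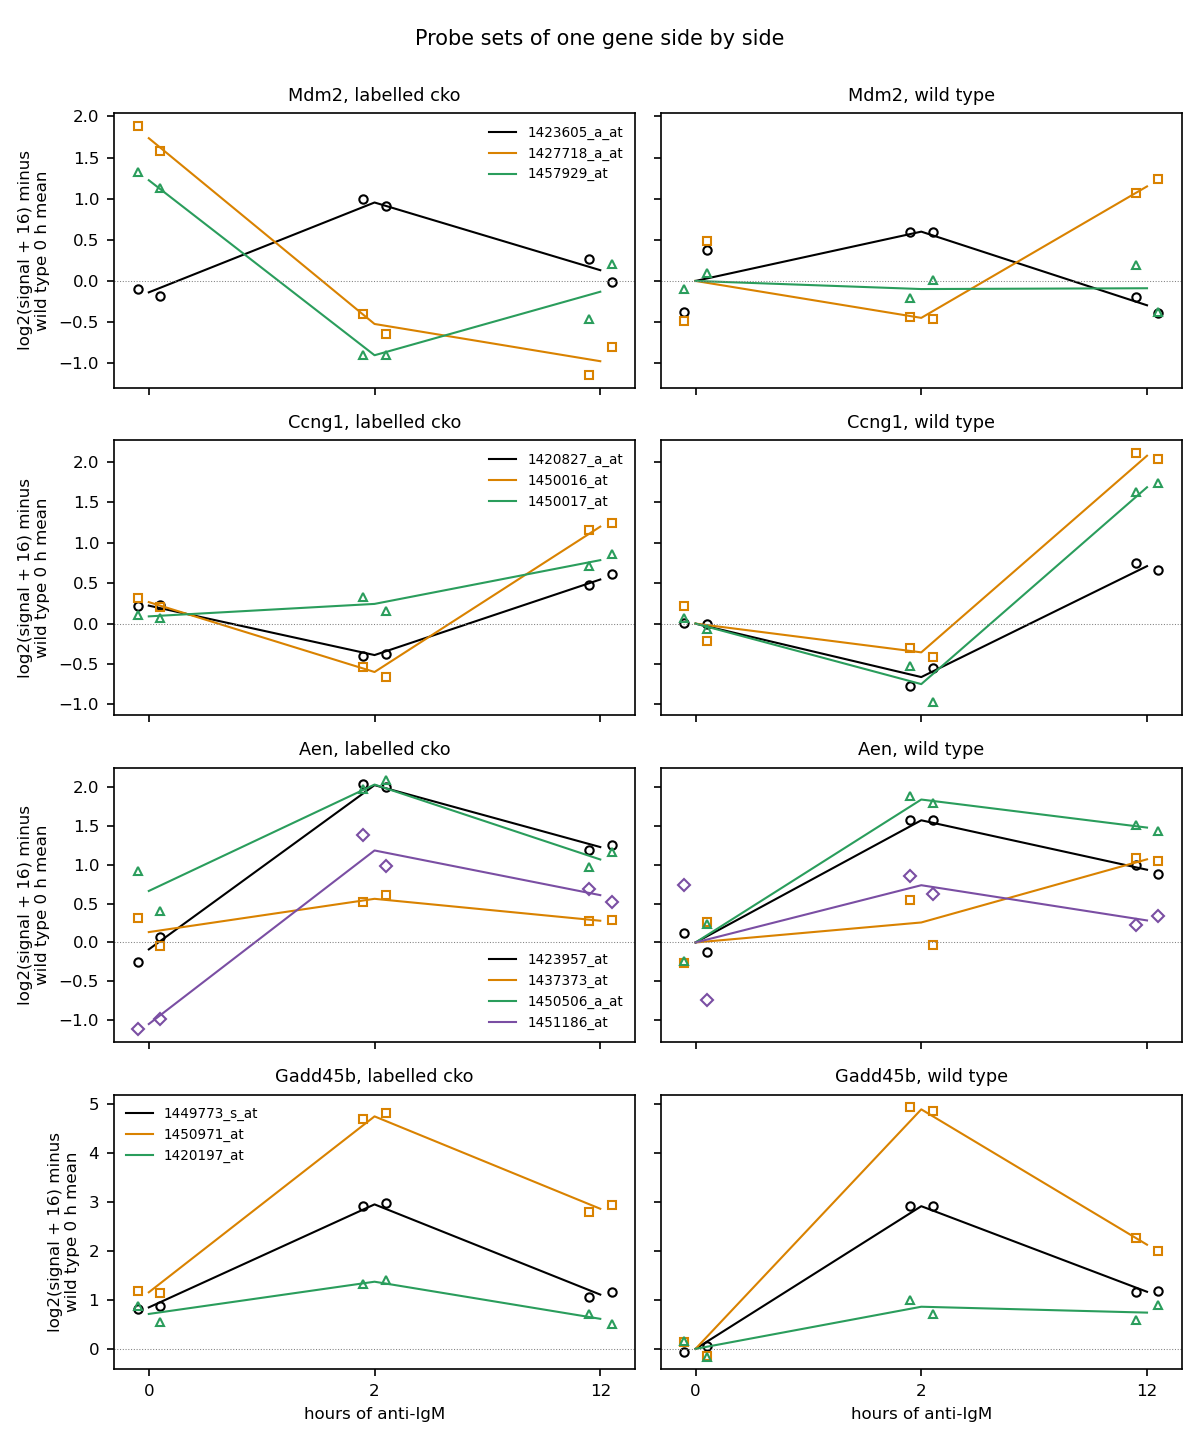
Probe sets of Mdm2, Ccng1, Aen and Gadd45b, the genes with 3 or 4 probe sets, at 0, 2 and 12 h of anti-IgM (evenly spaced on the axis), with cko left of wild type. Points are arrays and lines join group means of log2(signal + 16) minus the wild-type 0 h mean of that probe set. All 3 probe sets of Gadd45b are highest at 2 h, whereas those of Mdm2 differ in direction at 2 h against 0 h in cko (1.09, -2.26 and -2.13).

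Counted over the 19 probe sets, those of 1 gene share its transcript and are not separate observations. Between the genotypes 8 were higher and 1 lower in cko at 0 h, where 27.4% of all 21906 probe sets were called, 13.6% higher and 13.9% lower. Mdm2 1457929_at, which passed the filter through cko at 0 h, is among these 8. It is also among the falls in cko at 2 h and 12 h and the lower interactions at 2 h. At 2 h 5 were higher and 1 lower, where 21.6% of all were called, 10.1% higher and 11.5% lower. At 12 h 4 were higher and 6 lower, where 48.1% of all were called, 22.7% higher and 25.4% lower. The share of the members called was 47.4%, 31.6% and 52.6% at these times. Their median difference was 0.36, 0.27 and -0.17, beside 0.01, -0.004 and -0.11 over all probe sets. When duplicate arrays were averaged first and the genotype was 1 additive term of a limma fit on 6 values, 0 of the 19 were called between the genotypes, and 3 had an unadjusted p under 0.05.

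In the responses to anti-IgM 8 rose and 7 fell at 2 h in cko, where 60.6% of all were called, 27.2% higher and 33.4% lower. In wild type 7 rose and 6 fell, where 56.8% were called, 26.1% higher and 30.8% lower. At 12 h 9 rose and 3 fell in cko, where 56.3% were called, 26.3% higher and 30% lower. In wild type 11 rose and 3 fell, where 43.6% were called, 21.4% higher and 22.1% lower. With duplicate arrays averaged and genotype additive, the 2 h calls on the brightest probe sets of Mdm2 (0.85), Ccng1 (-0.64), Gadd45a (1.14) and Gadd45g (-0.56) were lost, and at 12 h those of Ccng1 (0.52), Gadd45a (0.05), Gadd45b (0.71) and Gadd45g in wild type (-0.75). Of the 12 h calls in wild type the 11 belonged to Mdm2, Ccng1, Aen, Phlda3 and Gadd45b, and the 3 to Trp53inp1, Gadd45a and Gadd45g.

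At 12 h against 2 h in cko 6 rose and 6 fell, where 43.8% of all were called, 23.7% higher and 20.2% lower. The rises were in Ccng1, Phlda3, Zmat3 and Gadd45g, and the falls in Mdm2, Aen and Gadd45b. The rise of Gadd45g (0.33) was lost without each of the 4 arrays in turn (0.30 to 0.36). That of Ccng1 1450017_at (0.54) was lost without replicate 2 at 2 h (0.46) or 12 h (0.47), and the fall of Gadd45b 1420197_at (-0.76) without replicate 2 at 2 h (-0.72) or 12 h (-0.66). The interaction was called for 3 higher and 5 lower at 2 h, where 16.8% of all were called, 7.72% higher and 9.08% lower. At 12 h it was called for 2 higher, Gadd45a and Gadd45g, and 10 lower, where 40.4% were called, 20% higher and 20.4% lower. Under median scaling 5 of these 10 lower calls were lost. Each genotype's 2 h and 12 h responses share its 0 h arrays. Of all 111 calls made in 190 tests on the members, 82 were kept without each array in turn and under up to 10 other settings of scaling, pseudocount, filter, variance, block and samples, the additive models and averages over a gene's probe sets apart.

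**Figure D3:**
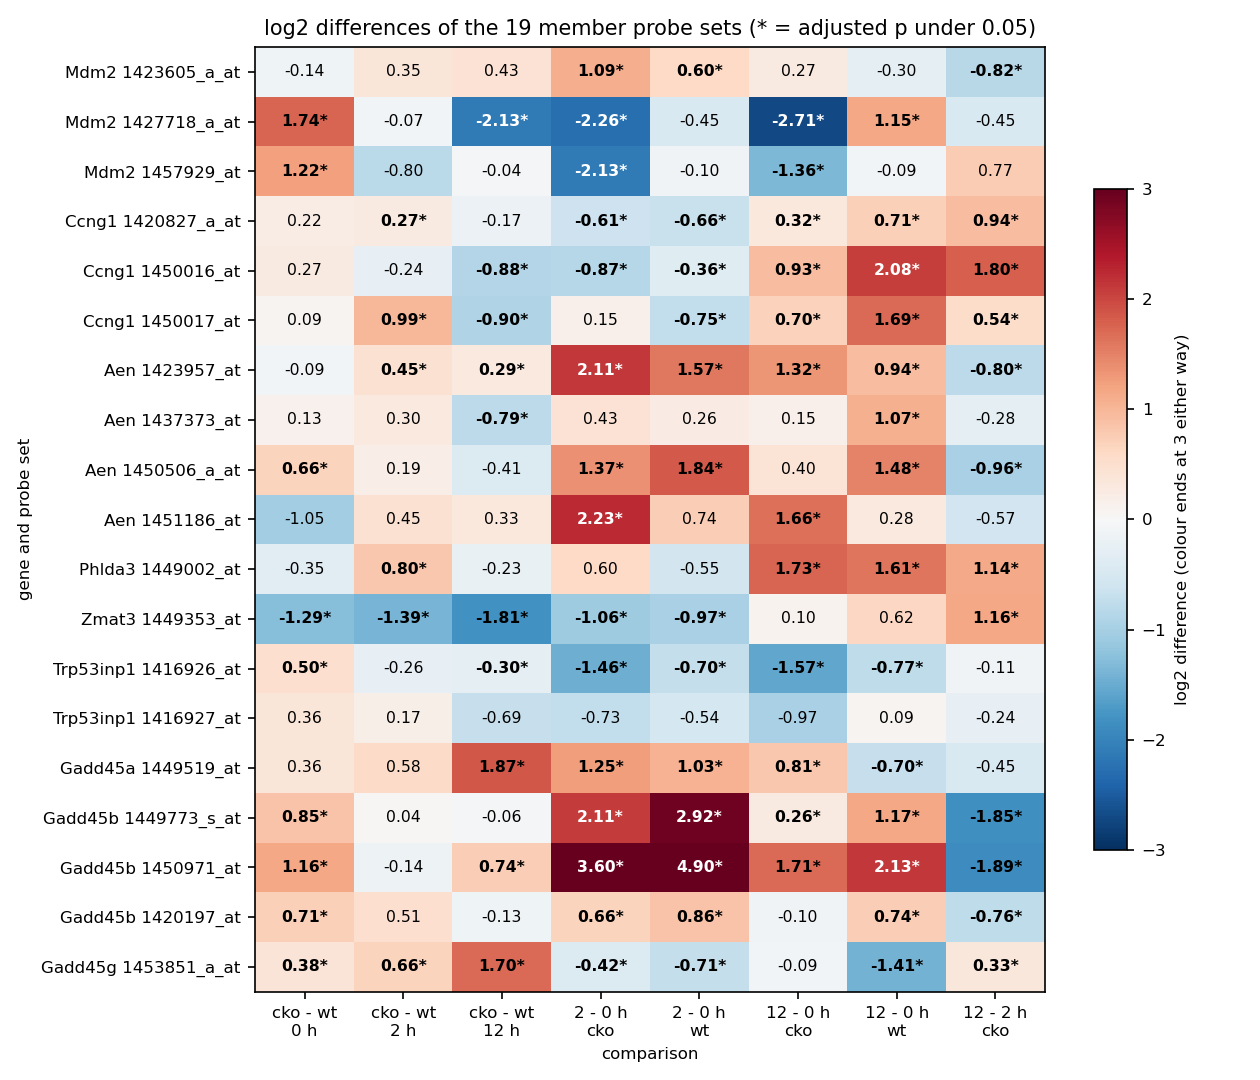
Log2(signal + 16) difference of each of the 19 probe sets (rows) in the 8 comparisons of groups, without the interactions (columns, cko over wild type or later over earlier), with red for higher, blue for lower and an asterisk for an adjusted p under 0.05. Zmat3 is lower in cko at all 3 times (-1.29, -1.39 and -1.81), and Gadd45g is higher (0.38, 0.66 and 1.70).

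Other genes of the pathway were read on their brightest probe set. Over all 12190 genes 23.8% rose and 39% fell at 2 h in cko and 23.3% and 36% in wild type. At 12 h 25.7% rose and 32.8% fell in cko and 24.5% and 22.9% in wild type. Between the genotypes 15.6% were higher and 15.3% lower at 0 h, 11.7% and 14.5% at 2 h, and 21.2% and 29.7% at 12 h. Of 17 p53 regulators tested, 7 rose and 6 fell at 2 h in cko, and 5 rose and 7 fell in wild type. Npm1, the nucleolar protein that binds the MDM2 inhibitor ARF, rose (1.15 ± 0.05 in cko, 0.91 ± 0.05 in wild type), as did the ubiquitin ligase Cop1 (0.96 in cko, 1.16 in wild type). The checkpoint kinase Chek2 fell (-1.68 in cko, -1.39 in wild type), and Trp53bp1, the DNA damage adaptor, fell in cko (-1.08 ± 0.07). At 12 h 2 rose and 9 fell in cko, the rises being Npm1 (1.06) and the checkpoint kinase Chek1 (1.13), and 5 rose and 5 fell in wild type, with Mdm4 (-1.27) among the falls. Between the genotypes at 12 h 5 were higher in cko, among them the damage kinase Atm (0.98 ± 0.15) and the p53 inhibitor Mdm4 (1.37 ± 0.22), and 7 were lower, led by Usp7 (-0.77 ± 0.06), which removes ubiquitin from MDM2 and p53, and the phosphatase Ppm1d (-1.17 ± 0.10). At 2 h 4 were higher, among them the ubiquitin ligase Rchy1 (0.85 ± 0.13) and Atm (0.78 ± 0.15), and 3 were lower, Trp53bp1 (-0.62 ± 0.07) in front. At 0 h 2 were higher, Chek2 (0.89 ± 0.16) and Trp53bp1 (0.33), and 4 were lower, among them the acetyltransferase Ep300 (-0.39) and the kinase Hipk2 (-0.46).

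Of 27 other p53 target genes, 10 rose and 9 fell at 2 h in cko, and 9 rose and 7 fell in wild type. Cdkn1a, the p21 cell cycle inhibitor, averaged 158 at 0 h, 719 at 2 h and 2089 at 12 h in cko, against 110.1, 936 and 2179 in wild type. It rose by 2.08 ± 0.14 in cko and 2.92 ± 0.14 in wild type at 2 h, and by 3.59 ± 0.14 and 4.13 ± 0.14 at 12 h. It was 0.47 ± 0.14 higher in cko at 0 h. The antiproliferative gene Btg2 rose in cko at 2 h (1.08 ± 0.07) and the antiproliferative gene Tob1 rose in wild type (2.43). The stress gene Sesn1 fell (-1.02 in cko, -1.40 ± 0.07 in wild type), and so did the ribonucleotide reductase gene Rrm2b in cko (-1.70). At 12 h 8 rose and 7 fell in cko (25.7% and 32.8% over all genes), and 6 rose and 8 fell in wild type (24.5% and 22.9%), with the polo-like kinase gene Plk2 among the falls (-1.74 ± 0.13 in cko, -2.20 ± 0.13 in wild type). Between the genotypes 4 were higher and 4 lower at 0 h, 2 and 2 at 2 h, and 7 and 5 at 12 h. Btg2 was higher in cko at 0 h (0.46 ± 0.07), 2 h (0.68 ± 0.07) and 12 h (2.02 ± 0.07). Ei24, which codes for an endoplasmic reticulum protein, was lower at 0 h (-1.15 ± 0.10), 2 h (-1.59 ± 0.10) and 12 h (-0.67). The metabolic gene Tigar was lower at 12 h (-0.80), and the repair gene Ddb2 was lower at 2 h (-0.60). The median over these 27 genes was -0.07, -0.004 and 0.22 for the genotype comparisons at 0, 2 and 12 h, beside 0.02, -0.02 and -0.17 over all 12190 genes on their brightest probe sets.

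Of 6 genes for partners of the GADD45 proteins, Pcna, the sliding clamp of DNA replication, rose at 2 h (2.90 ± 0.06 in cko, 2.65 ± 0.06 in wild type) and at 12 h (2.41 ± 0.06 in cko, 1.15 ± 0.06 in wild type). Map3k4, the kinase that GADD45 proteins activate, fell at 2 h (-3.13 ± 0.10 in cko, -3.33 ± 0.10 in wild type), and Mapk14, the p38 kinase, fell in cko (-2.23 ± 0.15). In all 1 rose and 2 fell at 2 h in cko, and 2 and 2 in wild type. At 12 h 3 rose and 2 fell in cko, and 3 and 3 in wild type, where the repair nuclease gene Apex1 rose by 1.70 ± 0.07. Between the genotypes 1 was higher and 1 lower at 0 h, 0 and 2 at 2 h (1 and 2 at an unadjusted p under 0.05 in limma), and 1 and 3 at 12 h. Apex1 was higher in cko at 0 h (0.82 ± 0.07) and Cdk1, the mitotic kinase, was lower at 0 h (-1.30 ± 0.29) and 2 h (-1.13). At 12 h Pcna was higher (1.16), and Gadd45gip1, which codes for a GADD45-binding protein, was lower (-1.51).

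The brightest probe set of each member was correlated (Pearson, log2 signals, 12 arrays) with all tested probe sets of other genes. The gene of the most alike probe set is named, as a description of arrays that share groups. It was Asxl1 for Gadd45b (r = 0.996), Sh3glb1 for Gadd45a (0.971) and Gas2l3 for Gadd45g (0.948). For the p53 genes it was 4930507D05Rik for Mdm2 (0.980), Tmtc3 for Ccng1 (0.987), Gm31718 for Aen (0.991), Mrrf for Phlda3 (0.965), Cdc7 for Zmat3 (0.977) and Trim59 for Trp53inp1 (0.971).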

How the data were processed

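Amplified RNA of the 6 groups was put on Affymetrix whole-genome mouse arrays, 2 for each group and 12 in all, per the labels' protocols. The authors scanned and processed them with GCOS 1.4, per the submitters' processing notes, and deposited a linear signal intensity for each probe set of each array. How probes were combined into a probe set is not stated in the sources used here. Every array had the same mean after trimming 2% at each end (250.0), so a change in a few bright genes can shift the values of all others.

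Signals were transformed as log2(signal + 16) without further normalization. Of 45101 probe sets, 34945 had 1 gene symbol in the platform annotation, 932 had several and 9160 had none. Those with 1 symbol and a mean above the 40th percentile (5.14) were tested, 21906 in all, with limma 3.58.1 in R 4.3.3, 6 group means and an intensity trend (6 residual and 7.46 prior degrees of freedom). P-values were two-sided and adjusted by Benjamini-Hochberg in each of 10 comparisons. The number of arrays limits the precision.

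The probe set was the unit, and all member probe sets are named. Of each list, the genes named are among the 2 with the smallest p in each direction, with Cdkn1a and Mdm4 besides. Alternatives were median scaling, quantile normalization, other pseudocounts and filters, no trend, only the groups compared, the replicate block, 1 value per gene, the mean of duplicates, a control-probe term and each array left out in turn. The procedure was tested on simulated data. Members and lists were chosen with earlier results of these data known.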

Additional observations from a re-analysis of the deposited data

Results flagged for a closer look

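The response to anti-IgM differed between cko and wild type, by the interaction term of the limma fit, in 20 tests on the 19 probe sets, 8 at 2 h and 12 at 12 h. The values below are interactions on the log2(signal + 16) scale, and a positive value means a larger rise or a smaller fall in cko.

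At 2 h the interaction was -1.30 and -0.81 on the Gadd45b probe sets 1450971_at and 1449773_s_at, -0.76 on Trp53inp1 (1416926_at), and -1.81 and -2.03 on the Mdm2 probe sets 1427718_a_at and 1457929_at. It was 0.54 on Aen (1423957_at), 1.15 on Phlda3 and 0.90 on Ccng1 (1450017_at). Here each genotype's 0 h and 2 h groups lie on opposite sides of the control-probe division. Mdm2 1457929_at passed the filter on low values through cko at 0 h, which is part of this interaction.

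At 12 h it was 1.50 on Gadd45a and 1.32 on Gadd45g. It was -0.91, -0.42 and -0.84 on the Gadd45b probe sets 1449773_s_at, 1450971_at and 1420197_at, -0.39, -1.14 and -0.99 on the Ccng1 probe sets 1420827_a_at, 1450016_at and 1450017_at, -0.92 and -1.07 on the Aen probe sets 1437373_at and 1450506_a_at, -0.80 on Trp53inp1 and -3.86 on Mdm2 (1427718_a_at). Of the 12 h groups, only cko lies on the side of the division with the higher actin ratio, so genotype and division cannot be told apart there.

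Under median scaling, which raises this interaction by 0.29 over all probe sets, 5 of the 12 h calls were lost, on Gadd45b 1450971_at (-0.13) and 1420197_at (-0.55), Ccng1 1420827_a_at (-0.09), and Aen 1437373_at (-0.63) and 1450506_a_at (-0.78). All 5 were among the lower calls. Other probe sets became called under it, so that 10 of 19 were called for the 12 h interaction, against 12. Of 9 settings, which include median scaling, 4 kept the 12 h call on 1450971_at and 6 kept that on 1420197_at. The 2 h call on Phlda3 was kept in 6 of 10, and that on Aen 1423957_at in 8 of 10. Several of these 12 h values lost their call without 1 array. For Gadd45b these were 1450971_at without cko replicate 1 (-0.40) or 2 (-0.44) at 0 h, cko replicate 1 at 12 h (-0.35), wild-type replicate 2 at 0 h (-0.28) or wild-type replicate 1 at 12 h (-0.29), and 1420197_at without cko replicate 1 at 0 h (-0.68), cko replicate 2 at 12 h (-0.74), or wild-type replicate 2 at 0 h (-0.68) or 12 h (-0.68). For Aen they were 1437373_at without replicate 1 of either genotype at 0 h (-0.75 in cko, -0.66 in wild type) or any of the 12 h arrays (-0.94 to -0.91), and 1450506_a_at without cko replicate 1 at 0 h (-0.81) or 12 h (-0.97) or wild-type replicate 1 at 0 h (-0.84). At 2 h Ccng1 1450017_at lost its call without cko replicate 1 (0.82) or wild-type replicate 2 (0.68) at 2 h.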

How the results depend on the processing

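The member probe sets called, as a share of 19, were recomputed under each alternative. Under median scaling, quantile normalization, pseudocounts of 1 and 64, no filter, a filter at the 60th percentile, the fit of only the groups compared and the replicate block, each of the 10 shares stayed within 1.5 times its value, and no member that was called changed its sign. The shared replicate numbers did not pair the samples, as the correlations of same-numbered deviations over 15 pairs of groups ran from -0.013 to 0.021. With the replicate block 36.8% of the members were called between the genotypes at 2 h, against 31.6% without it, and the other 9 shares did not move. For the genotype comparison at 2 h the share was 15.8% without an intensity trend and 55.6% of 9 genes with the brightest probe set of each. With each array left out in turn the share ran from 26.3 to 47.4% for the genotype comparison at 0 h, from 15.8 to 26.3% at 2 h and from 42.1 to 47.4% at 12 h. It ran from 26.3 to 47.4% for the interaction at 2 h and from 42.1 to 63.2% for that at 12 h. A group with an array left out holds a lone array, which is assumed to vary like the others.

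With duplicate arrays averaged and genotype and time additive, 0% were called between the genotypes at 0, 2 and 12 h (3 of 19 at an unadjusted p under 0.05 in limma), 36.8% at 2 h against 0 h and 26.3% at 12 h against 0 h in either genotype, a fit with 1 value for each group. This model gives 1 genotype effect for all times, so its value turned the sign of Trp53inp1 1416926_at (-0.019) and Mdm2 1427718_a_at (-0.15) at 0 h and of Ccng1 1450017_at (0.060) at 12 h, and its 12 h effect that of Mdm2 1427718_a_at (-0.78) and Gadd45a (0.054) in wild type.

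With the control-probe division as a further additive term, 31.6% were called between the genotypes and 42.1% at 2 h against 0 h. The genotype term of this model rests on the 0 h and 2 h arrays, so it is no check of the 12 h share or of the 12 h genotype differences. Against the 12 h genotype differences the sign turned for Trp53inp1 1416926_at (0.12), Gadd45b 1420197_at (0.61) and 1449773_s_at (0.44), Ccng1 1420827_a_at (0.25), 1450016_at (0.012) and 1450017_at (0.54), Mdm2 1427718_a_at (0.83) and Aen 1437373_at (0.22). Against the 2 h responses it turned for Gadd45a in both genotypes (-0.25), Ccng1 1450016_at in both (0.28), Ccng1 1450017_at in wild type (1.15) and Mdm2 1427718_a_at in cko (1.60). Against the 12 h response in cko it turned for Gadd45b 1420197_at (0.69), Mdm2 1427718_a_at (0.70) and Gadd45a (-0.64). These turns follow from how the model takes its terms. Its genotype term holds nothing of the 12 h arrays, and its 12 h term nothing of cko at 12 h. The 2 h term carries the 12 h genotype difference through the division term. What the division itself does to these probe sets was not tested.

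With all probe sets of a gene averaged, the sign of the brightest probe set turned for Mdm2, at 0.94 and -0.58 between the genotypes at 0 h and 12 h, -1.10 and -1.27 at 2 h and 12 h in cko, and -1.12 and -1.52 for the interactions at 2 h and 12 h. It turned for Aen between the genotypes at 12 h (-0.15).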
